A study of Mus musculus with 25 samples.

Results

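The 10 genes described here encode the core of the transforming growth factor beta (TGF-beta) system: 3 ligands (Tgfb1, Tgfb2, Tgfb3), 3 receptors (Tgfbr1, Tgfbr2, Tgfbr3) and 4 latent TGF-beta binding proteins (Ltbp1, Ltbp2, Ltbp3, Ltbp4). They were taken as the rows of the expression table that carry these symbols, and they are 10 of the 37406 genes listed. These genes, and the lists of related genes used below, were chosen with earlier results of these data known. TGF-beta ligands are secreted inside a propeptide that keeps them inactive, and most latent complexes carry a binding protein that anchors them to the extracellular matrix until integrins, proteases or force release the ligand. Free ligand brings the type II receptor together with the type I receptor kinase, which phosphorylates Smad2 and Smad3, while betaglycan, the product of Tgfbr3, presents ligand to the signalling receptors and is needed most for the TGF-beta2 ligand. In the palate TGF-beta3 is best known from the epithelium of the medial edge, where it is needed for the shelves to fuse, and TGF-beta signals also act in the palatal mesenchyme.

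RNA was sequenced from laser captured pieces of the developing mouse palate at E14.5 (the embryonic day), soon after the shelves meet in the midline. All animals were wild type CD1, with no treatment, and every library came from 1 of 8 compartments: the medial, lateral, oral or nasal part of the anterior or of the posterior palate. There were 3 libraries of each compartment and 4 of the anterior nasal compartment, 25 in all, with 13 anterior and 12 posterior. Values are RPKM (reads mapped to a transcript, scaled to its length in kilobases and to the mapped reads of the library), which allow levels to be compared between genes. The questions put to these data are how the genes differ between lateral and medial, between oral and nasal and between posterior and anterior palate, and whether a medial-lateral or oral-nasal difference itself changes along the anterior-posterior axis.

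The steps between low RPKM values implied 1.64 to 6.56 M counted reads per library (median 3.27), which at the length of the longest annotated transcript is, in the median library, about 39.8 reads for Tgfb1, 77.7 for Ltbp2 and 287.8 to 728.6 for each of the other 8 genes. All 8 markers of palate mesenchyme were found, with summed levels of 681 to 1390 RPKM, so the labelled tissue was present in every library. Posterior medial replicate 2 stood apart: 12935 genes were above 0 there against 16330 to 20605 elsewhere, and its mean correlation with its replicates was 0.65. In 6 libraries the alignment names carry the words Tgfbr2 or ERK2 before WT, and the labels call all of them wild type. Of these, 4 carry Tgfbr2, one of the genes described. The libraries came from 8 sequencing runs, lettered A to H here from the alignment names. Runs A, B and C held only the 6 libraries so named. These also had the most implied reads, 4.07 to 6.56 M against at most 3.86 M in the rest. Name, run and depth therefore cannot be told apart where these 6 are left out. The 3 anterior medial libraries were all from run G and the anterior lateral ones from runs F and H, and the posterior medial libraries came from runs A and G and the posterior lateral ones from runs B and H. Run and compartment therefore cannot be told apart in either medial-lateral comparison. Whether libraries of a compartment came from separate embryos or litters is not given beyond the study's words on biological replicates, and p-values measure the spread between these libraries. A lower level of a gene in a compartment can mean fewer cells that express it or less RNA per cell, and these cannot be told apart in captured tissue.

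Seen across the 8 compartments, Tgfb2 and Ltbp2 were the members that passed an adjusted threshold. In a limma F-test on log2(RPKM + 0.1) over all compartments, 526 of 11913 genes (4.42%) had an adjusted p under 0.05, and 2 of the 10 genes were among them: Tgfb2 (adjusted p = 0.00785) and Ltbp2 (adjusted p = 0.0209). Ltbp4 (adjusted p = 0.0762) and Tgfbr3 (adjusted p = 0.200) came next, then Tgfb3 (adjusted p = 0.352) and Tgfbr2 (adjusted p = 0.360). Each of these had an unadjusted P under 0.05 in the limma F-test, from 0.00396 to 0.0390. Missing the adjusted threshold does not show an even level. The anterior lateral against medial test below called Ltbp4, Tgfbr3 and Tgfb3 at an adjusted p under 0.05. Between the highest and the lowest compartment mean the level of Ltbp2 differed 13.7-fold, that of Tgfbr3 3.71-fold and that of Tgfb2 2.97-fold, against 1.49-fold for Tgfbr1 and 1.63-fold for Ltbp3. The ratio of Ltbp2 was 119-fold without posterior medial replicate 1 and 9.14-fold without posterior medial replicate 2. The number of members called across compartments ran from 1 to 4 when a single library was left out, as given with the other settings at the end. The share of all genes called ran from 3.25% to 6.22% over the same fits.

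The promoters of Tgfb2 and Ltbp2, the 2 members called in the F-test, are shown. Both had their lowest mean in the posterior medial and their highest in the posterior lateral palate. So did Ltbp1, at 18.8 and 36.8 RPKM, which was not called in that test. Each is the RefSeq window from 250 bases before to 50 bases after the start of transcription, in the GRCm38.p6 build, printed 5′ to 3′ on the strand of the gene. Capitals mark matches on either strand to the motifs searched: TGACGTCA (cyclic AMP response element), GGGCGG (GC box), GTCTAGAC (Smad box) and TATAAA (the core promoter box named after it), none of which overlap each other here.
Tgfb2, chr1:186705940-186706239, minus strand: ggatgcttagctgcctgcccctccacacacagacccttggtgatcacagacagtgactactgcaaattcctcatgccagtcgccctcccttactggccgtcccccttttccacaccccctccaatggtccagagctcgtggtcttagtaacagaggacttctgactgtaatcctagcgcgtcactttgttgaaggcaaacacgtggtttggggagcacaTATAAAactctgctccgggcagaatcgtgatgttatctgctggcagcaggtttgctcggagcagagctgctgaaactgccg
Ltbp2, chr12:84876442-84876741, minus strand: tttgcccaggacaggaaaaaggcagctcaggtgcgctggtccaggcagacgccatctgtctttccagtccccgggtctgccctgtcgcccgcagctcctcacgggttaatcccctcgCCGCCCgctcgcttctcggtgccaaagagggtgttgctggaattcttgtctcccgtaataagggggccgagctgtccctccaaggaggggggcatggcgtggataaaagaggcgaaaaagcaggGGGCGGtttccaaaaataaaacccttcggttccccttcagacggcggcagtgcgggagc
The window of Tgfb2 holds 1 TATAAA match, which begins at base -31 from the start site, a motif found in 13.6% of 32851 RefSeq promoter windows of the same length. That of Ltbp2 holds 2 GGGCGG matches, beginning at bases -133 and -9, a motif found in 35.7% of windows. TGACGTCA (1.79% of windows) and GTCTAGAC (0.21%) had no match in either, and no motif searched was shared by the pair. Windows were found for 8 of the 10 genes, all but Tgfb3 and Tgfbr3. A window of Ltbp1, not printed here, holds 1 TGACGTCA match. A match describes letters only.

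**Figure D1:**
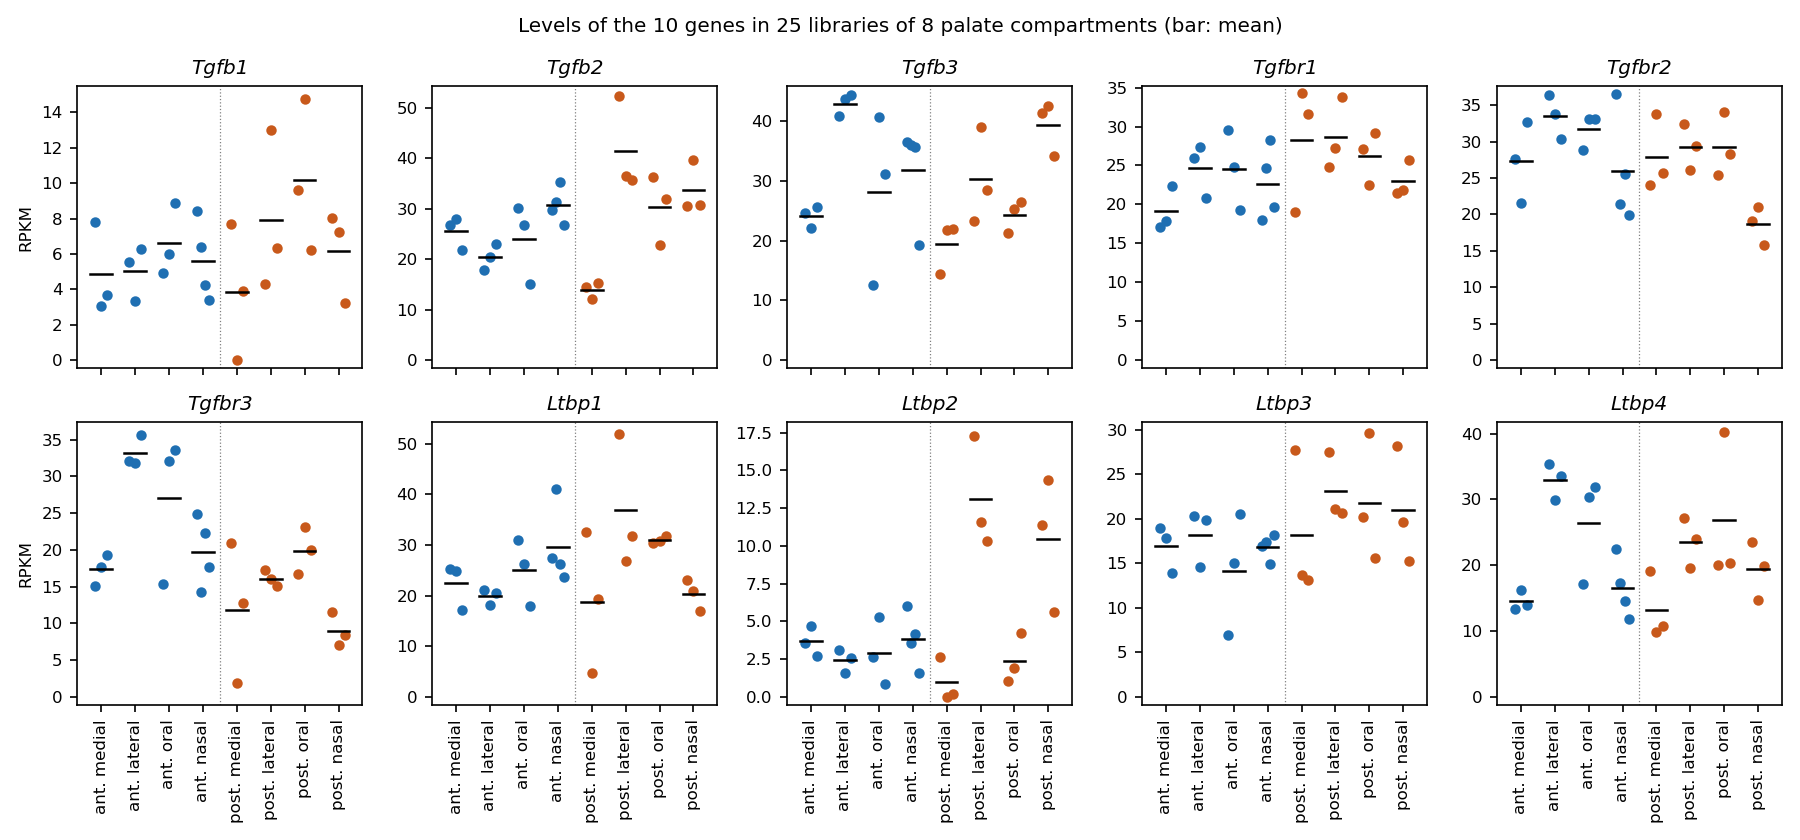
RPKM of each of the 10 genes (1 panel each, vertical axis from 0) in the 25 libraries, by compartment. Points are libraries, blue for anterior and orange for posterior, and black bars are means. Ltbp2 stands above 5 RPKM in all posterior lateral and posterior nasal libraries, and Tgfb2 is lowest on average in the posterior medial compartment.

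Of the ligands, Tgfb3 and Tgfb2 made up nearly all transcripts and Tgfb1 was scarce. Tgfb1 (gene 21803, chr7:26472021-26490015 in mm9, the build of the deposited files), whose product is the most widely expressed TGF-beta in adult tissues, had 6.26 ± 3.21 RPKM (mean ± SD, n = 25), below the other ligands in all 25 libraries. Its compartment means ran from 3.88 RPKM in posterior medial to 10.2 RPKM in posterior oral palate, and every neighbouring pair in that order overlapped. Tgfb1 was listed at 0 in posterior medial replicate 2, the library that stands apart, with 7.72 and 3.91 RPKM in the other posterior medial libraries.

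Tgfb2 (gene 21808, chr1:188447065-188529871) encodes the ligand that binds the type II receptor poorly without betaglycan. Its mean was 27.7 ± 9.21 RPKM over the 25 libraries. In the posterior palate the medial libraries had 14.48, 12.1 and 15.3 RPKM and the lateral ones 52.3, 36.5 and 35.7 RPKM. All 3 lateral libraries were higher than all medial ones, including the medial library that stands apart. In the anterior palate the order was the other way round, with 26.7, 27.9 and 21.9 RPKM in medial and 17.95, 20.5 and 22.9 RPKM in lateral libraries, and there the groups overlapped. By mean, Tgfb2 ranked from posterior lateral (41.5 ± 9.35 RPKM, n = 3) over posterior nasal (33.6), anterior nasal (30.8), posterior oral (30.3), anterior medial (25.5), anterior oral (24.03) and anterior lateral (20.5) to posterior medial (14.0 ± 1.65 RPKM, n = 3). Only the step from anterior lateral to posterior medial separated neighbours without overlap of their libraries.

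Tgfb3 (gene 21809, chr12:87397693-87419991) averaged 30.1 ± 9.53 RPKM. It was highest in the anterior lateral palate, at 40.7, 43.7 and 44.2 RPKM, against 24.5, 22.1 and 25.6 RPKM in the anterior medial palate. Posterior nasal libraries had 41.3, 42.4 and 34.2 RPKM, and posterior oral ones 21.2, 25.3 and 26.4 RPKM. Both pairs of groups were apart. The lowest compartment mean of Tgfb3, 19.4 ± 4.32 RPKM (n = 3), belonged to the posterior medial compartment, where the shelves meet and where the summed epithelial markers (15 genes, all found) lay at 79.4 to 215 RPKM against 33.4 to 54.9 RPKM in posterior lateral libraries. The part of epithelium in the medial values was not tested.

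Tgfb3 was the most abundant ligand in 16 of 25 libraries, Tgfb2 in 9 and Tgfb1 in 0. The balance between the first 2 moved with the compartment. In the anterior lateral palate Tgfb3 made up 62.8 ± 2.30% of ligand RPKM and Tgfb2 29.9 ± 1.69% (n = 3), whereas in the anterior medial palate they were near parity, with 44.4 ± 4.84% and 46.9 ± 5.11%. Expressed as the log2 ratio of Tgfb3 to Tgfb2, this was 1.18, 1.09 and 0.95 in the anterior lateral and -0.12, -0.34 and 0.22 in the anterior medial libraries, which did not overlap. Posterior lateral libraries had ratios of -1.17, 0.10 and -0.33 and posterior medial ones -0.01, 0.85 and 0.52, with overlap.

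**Figure D2:**
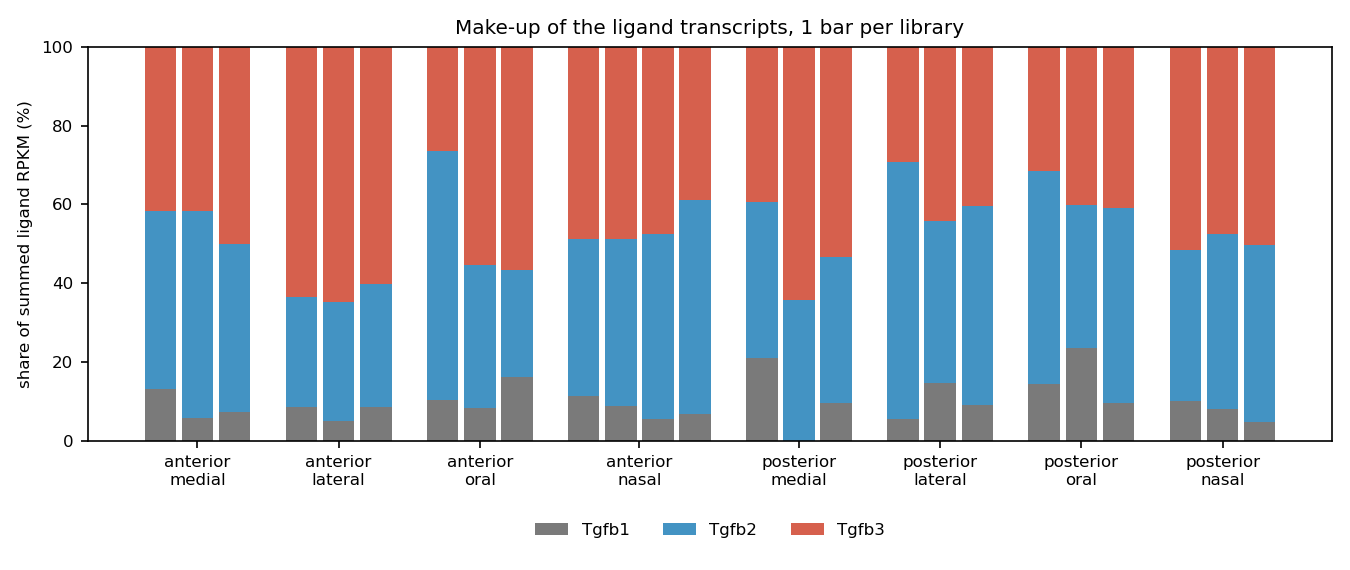
Share of the summed ligand RPKM (percent) held by Tgfb1 (grey), Tgfb2 (blue) and Tgfb3 (red), 1 bar for each of 25 libraries grouped by compartment. In the 3 anterior lateral libraries Tgfb3 holds 60.2% to 64.7%, and in posterior medial replicate 2 Tgfb1 is listed at 0.

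Of the receptors, the coreceptor gene Tgfbr3 ranged most between compartments and Tgfbr1 least. Tgfbr1 (gene 21812, chr4:47366177-47427796), the type I receptor kinase, had compartment means of 19.2 to 28.6 RPKM, in an order in which all neighbours overlapped. Tgfbr2 (gene 21813, chr9:115996813-116084481), the type II receptor that binds ligand first, ran from 18.6 ± 2.60 RPKM (n = 3) in the posterior nasal to 33.5 ± 2.99 RPKM (n = 3) in the anterior lateral palate. Its posterior nasal libraries, at 19.1, 20.96 and 15.8 RPKM, lay below those of the posterior oral palate, at 25.5, 34.1 and 28.3 RPKM. The 4 libraries whose alignment names carry Tgfbr2 had 19.95, 33.04, 25.5 and 19.1 RPKM of this gene, within the range of the other libraries.

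Tgfbr3 (gene 21814, chr5:107535589-107718614), betaglycan, is a coreceptor with no kinase of its own. Anterior lateral libraries had 32.01, 31.85 and 35.6 RPKM and anterior medial ones 15.1, 17.6 and 19.3 RPKM, with no overlap. Posterior nasal libraries had 11.5, 6.996 and 8.36 RPKM and posterior oral ones 16.7, 23.1 and 19.9 RPKM, again apart. Posterior lateral libraries held a narrow range of 15.1 to 17.2 RPKM, below all anterior lateral ones. Posterior medial values spread widely, at 20.9, 1.88 and 12.7 RPKM, the lowest being the library that stands apart. Summed over the 3 receptors, the level was 91.3 ± 3.98 RPKM in the anterior lateral compartment, the highest mean, and 50.6 ± 1.31 RPKM in the posterior nasal compartment, the lowest (n = 3 each).

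Among the latency proteins, Ltbp2 differed most between compartments and Ltbp3 least. Ltbp1 (gene 268977, chr17:75404869-75791109), which binds the latent complex and ties it to fibronectin and fibrillin, averaged 25.7 ± 9.03 RPKM. Its posterior oral libraries had 30.4, 30.8 and 31.7 RPKM and its posterior nasal ones 23.1, 20.8 and 16.9 RPKM, with no overlap. In the posterior medial palate it read 32.5, 4.67 and 19.2 RPKM, the middle value being replicate 2. Ltbp3 (gene 16998, chr19:5740904-5758532), another carrier of the latent complex, had compartment means of 14.2 to 23.1 RPKM that overlapped at every step.

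Ltbp2 (gene 16997, chr12:86124162-86217445) is the member of the family that does not bind latent TGF-beta and is known as a protein of elastic fibres and microfibrils. It averaged 4.92 ± 4.56 RPKM, with 8 of 25 libraries at 5 RPKM or more. Posterior lateral libraries had 17.3, 11.6 and 10.3 RPKM and posterior nasal ones 11.4, 14.4 and 5.63 RPKM. Posterior medial libraries had 2.64, 0 and 0.22 RPKM and posterior oral ones 1.04, 1.88 and 4.24 RPKM. The 2 high compartments did not overlap with the 2 low ones. All 13 anterior libraries lay between 0.86 and 6.01 RPKM.

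Ltbp4 (gene 108075, chr7:28090160-28122631), which is needed for elastic fibre assembly and carries mainly TGF-beta1, followed the anterior lateral pattern of Tgfbr3. It had 35.4, 29.9 and 33.5 RPKM in anterior lateral and 13.3, 16.2 and 13.9 RPKM in anterior medial libraries. Posterior lateral libraries had 27.1, 19.6 and 24.04 RPKM and posterior medial ones 19.0, 9.84 and 10.7 RPKM. In anterior and posterior palate alike the lateral libraries were all higher.

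Tests of lateral against medial palate found 3 members higher in the anterior lateral compartment. With the thresholds of the study (fold change above 2 with P below 0.05 before adjustment) limma called 2.37% of the 10428 genes tested and 1 of the 10 members, Ltbp4. With an adjusted p under 0.05 it called 2.51% of genes and 3 members. Ltbp4 was higher by 1.18 (log2 difference, SE 0.13, adjusted p = 0.00514), Tgfbr3 by 0.94 (SE 0.13, adjusted p = 0.0143) and Tgfb3 by 0.83 (SE 0.11, adjusted p = 0.0126). For the remaining 7 genes the 95% intervals included 0: that of Tgfb2 ran from -0.66 to 0.03 and that of Ltbp2 from -1.26 to 0.06. Groups did not overlap for 3 of 10 members against 21.3% of all genes. Over the 10 genes the median log2 difference was 0.22, and over all genes -0.03.

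Markers of other cell types moved with this comparison. Summed endothelial markers (9 genes, all found, none at 0 in every library) were 181 to 208 RPKM in anterior lateral and 125 to 153 RPKM in anterior medial libraries, with 1 of 8 tested higher by the study thresholds. Markers of smooth muscle and pericytes (9 genes, all found) summed to 139 to 143 RPKM against 54.9 to 116 RPKM, with 4 of 7 tested higher. Cartilage markers (7 genes, all found) went the other way, at 26.9 to 29.6 RPKM against 78.1 to 128 RPKM, with 2 of 4 tested lower. Epithelial markers (15 genes, all found) were 57.1 to 114 RPKM against 102 to 171 RPKM, which overlapped, with 3 of 9 tested lower and 1 higher. Markers of nerve and Schwann cells (8 genes, all found) summed to 25.4 to 28.4 RPKM against 39.6 to 62.3 RPKM, with 1 of 3 tested lower and 1 higher. Their part in the levels of Tgfbr3, Ltbp4 and Tgfb3 was not tested. In a fit of all 25 libraries no member had an adjusted p under 0.05, and with the run as a covariate there Ltbp4 differed by 1.12, Tgfbr3 by 1.09 and Tgfb3 by 1.26 and none was called. Run F held anterior lateral libraries alone, and run H held lateral libraries and posterior nasal replicate 3. That 1 nasal library is the only link to the medial run, with an SE of 0.71 to 1.12, so this fit cannot separate run from compartment. Without anterior lateral replicate 2 or replicate 3, or anterior medial replicate 2, the number of members with an adjusted p under 0.05 was 1, 1 and 2.

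In the posterior palate Tgfb2 and Ltbp2 passed the study thresholds. By the study thresholds limma called 1.12% of 10324 genes and 2 of the 10 members, both higher in the lateral compartment. Tgfb2 differed by 1.55 (SE 0.29, adjusted p = 0.957 in limma) and Ltbp2 by 4.85 (SE 1.15, adjusted p = 0.957 in limma). No gene of the 10324 had an adjusted p under 0.05 in this limma comparison, while 1.54% had an unadjusted P under 0.05. Ltbp4 differed by 0.88 (SE 0.35, limma adjusted p = 0.957), below the fold threshold. All 10 log2 differences were above 0, with a median of 0.94 against 0.05 over all genes, and groups were apart for 4 members (Tgfb2, Tgfb3, Ltbp2, Ltbp4) against 6.62% of genes. The shared sign and the median include posterior medial replicate 2, with Tgfb1 and Ltbp2 at 0, Tgfbr3 at 1.88 RPKM and Ltbp1 at 4.67 RPKM. Its fellow posterior medial libraries had 20.9 and 12.7 RPKM of Tgfbr3, on either side of the lateral 15.1 to 17.2 RPKM.

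Here too the summed markers of other cell types moved. Skeletal muscle markers (10 genes, all found) were 22.4 to 165 RPKM in posterior lateral and 1.33 to 21.4 RPKM in posterior medial libraries. The sums of smooth muscle and pericyte markers went the other way, at 31.7 to 51.8 RPKM against 70.8 to 125 RPKM. So did those of nerve and Schwann cells, at 14.4 to 16.2 RPKM against 26.4 to 50.3 RPKM, and the epithelial markers given above for Tgfb3. None of these sums overlapped between the groups. The smooth muscle and pericyte sum was carried by Acta2, with means of 11.95 RPKM in lateral and 65.7 RPKM in medial libraries. Tagln and Cspg4 also had lower lateral means, while Rgs5 (7.71 against 4.51 RPKM), Des (4.18 against 1.78), Kcnj8, Myh11, Actg2 and Cnn1 had higher ones. By the study thresholds 0 of 1 skeletal muscle, 1 of 4 smooth muscle, 0 of 1 nerve and 2 of 5 epithelial markers tested were called. Their part in the levels of Tgfb2 and Ltbp2 was not tested, and no sequencing run held both medial and lateral libraries.

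Posterior medial replicate 2 bears on these values. Without it the difference was 1.45 for Tgfb2 and 3.78 for Ltbp2, both still past the study thresholds. Without posterior medial replicate 1 they were 1.58 and 6.17, and 4 members and 2.33% of all genes were called. The size for Ltbp2 also depended on the pseudocount, at 3.07 with 1 RPKM and 6.13 with 0.01 RPKM added, since 1 medial library was listed at 0. In the fit of all 25 libraries, which pools the spread of the 8 compartments, Tgfb2 and Ltbp2 had adjusted p-values of 0.00415 and 0.00922 in limma. Tgfb1 and Ltbp1 also passed the study thresholds there, as did 5.06% of all genes. Both had their lowest posterior medial value in replicate 2, at 0 and 4.67 RPKM.

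**Figure D3:**
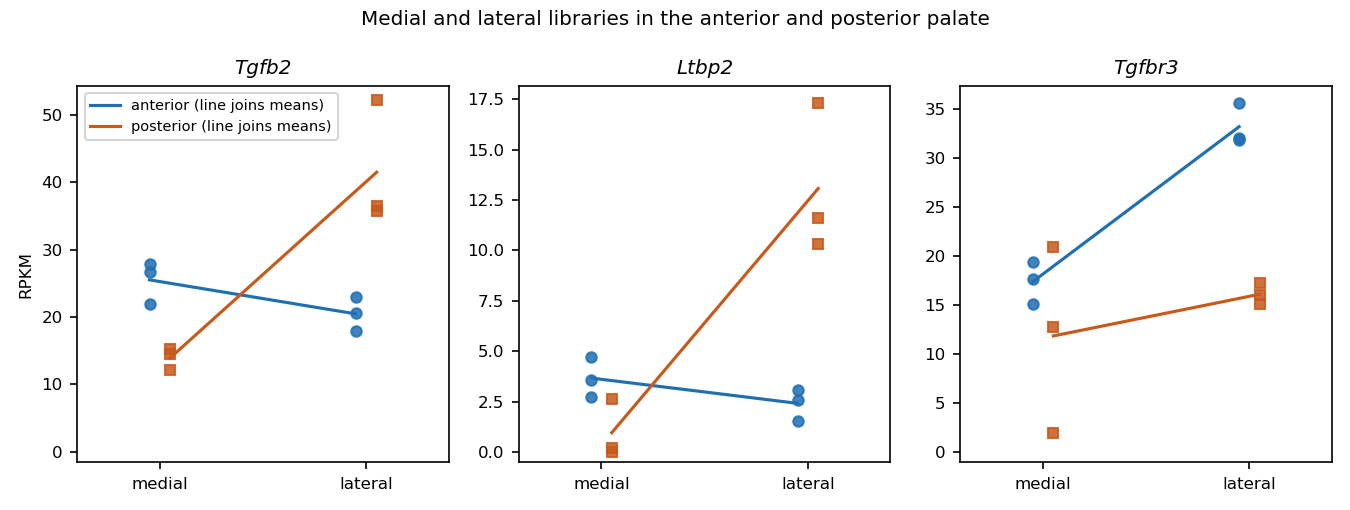
RPKM of Tgfb2, Ltbp2 and Tgfbr3 in medial and lateral libraries (horizontal axis), blue circles for anterior and orange squares for posterior, with lines joining the means of 3 libraries. For Tgfb2 and Ltbp2 the posterior lateral libraries are above all others and the anterior ones lie between the posterior groups or overlap the posterior medial group, while Tgfbr3 is highest in anterior lateral libraries.

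Whether the medial-lateral difference itself changed from anterior to posterior was tested as an interaction, the anterior lateral minus medial difference less the posterior one. Tgfb2 had an interaction of -1.87 (SE 0.30, limma adjusted p = 0.168) and Ltbp2 of -5.46 (SE 1.31, limma adjusted p = 0.550). Both passed an unadjusted P under 0.05 with a difference over 2-fold, as did 2.42% of 11089 genes, and neither passed the adjusted threshold, which 0.00902% did. In 4 alternative fits 1 of the pair did pass it: Tgfb2 in the fit of all 25 libraries (adjusted p = 0.0380 in limma), and Ltbp2 in that fit with the run as a covariate (0.0428), without the libraries named for Tgfbr2 or ERK2 (0.0448) and without posterior medial replicate 1 (0.0327). Over all alternatives the adjusted p ran from 0.0380 to 0.632 for Tgfb2 and from 0.0327 to 0.9995 for Ltbp2. The sign of both was the same in every alternative fit, from -1.97 to -1.55 for Tgfb2 and from -6.77 to -3.52 for Ltbp2. With the run as a covariate over all 25 libraries, where runs G and H held both anterior and posterior libraries, the interaction was -1.55 for Tgfb2 and -6.40 for Ltbp2. For Tgfbr3 the interaction was -0.06 with a 95% interval from -2.16 to 2.05, and for Tgfb3 0.20 with an interval from -0.54 to 0.94. Changes of any size within these intervals are not excluded here.

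Between oral and nasal anterior palate no member was called. By the study thresholds limma called 1.44% of 10685 genes and 0 of the 10 members, of which 0 also had an unadjusted P under 0.05, and groups were apart for 0 members against 3.67% of genes. No gene had an adjusted p under 0.05 in limma, and 2.98% had an unadjusted P under 0.05. Ltbp4 came closest, with 17.2, 30.3 and 31.9 RPKM in oral and 22.5, 17.4, 14.6 and 11.8 RPKM in nasal libraries (95% interval of the log2 difference -0.09 to 1.41). Within runs its log2 difference was 1.43 in run C, -0.20 in run D and 1.049 in run E. Each of these runs held 1 oral library, with 1, 2 and 1 nasal libraries. Tgfb3 was less even within the oral group than elsewhere, at 12.61, 40.6 and 31.2 RPKM.

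In the posterior palate the coreceptor was higher on the oral side and Ltbp2 on the nasal side by the study thresholds. These called 3.5% of 10586 genes and 2 of the 10 members in limma, with 0 members and 1.25% of genes at an adjusted p under 0.05. Tgfbr3 was higher in oral palate by 1.16 (SE 0.25, adjusted p = 0.0895 in limma). Ltbp2 was lower there by a log2 difference of -2.20 (SE 0.51, adjusted p = 0.114 in limma). Below the fold threshold, Tgfb3 differed by -0.69 (limma adjusted p = 0.264), Tgfbr2 by 0.65 (limma adjusted p = 0.363) and Ltbp1 by 0.62 (limma adjusted p = 0.351). Groups were apart for these 5 members against 11.8% of genes.

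Run C held 1 posterior oral and 1 posterior nasal library, and run G held 2 and 1. Within these runs the posterior oral minus nasal difference of Ltbp2 was -3.33 in run C and -2.30 in run G. That of Tgfbr3 was 0.54 and 1.60, and that of Tgfb3 -0.96 and -0.71. The directions were the same in both runs. With the run as a covariate in the fit of all libraries, Tgfbr3 differed by 1.15 and was no longer called, and Ltbp2 differed by -2.74. Endothelial markers were 156 to 213 RPKM in posterior oral and 65.8 to 102 RPKM in posterior nasal libraries, with 5 of 8 tested higher by the study thresholds. Osteoblast markers (10 genes, 1 of them, Bglap2, at 0 in every library) summed to 436 to 614 RPKM in posterior nasal and 91.6 to 110 RPKM in posterior oral libraries, and all 5 tested were lower in oral palate with an adjusted p under 0.05 in limma. For Ltbp2 the posterior lateral compartment had the highest mean, 13.1 RPKM, with summed osteoblast markers of 54.3 to 170 RPKM. Their median there was 167 RPKM, against 552 RPKM in posterior nasal palate and medians of 68.3 to 111 RPKM in the remaining compartments. The part of endothelial cells or osteoblasts in the levels of Tgfbr3, Tgfb3 and Ltbp2 was not tested.

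The oral-nasal interaction gave 0 members past the study thresholds, against 2.38% of 11442 genes, and 0 at an adjusted p under 0.05, against 0.035%. Ltbp1 had an unadjusted P under 0.05, with an interaction of -0.87 (SE 0.36, limma adjusted p = 1.00). Its oral minus nasal difference was -0.25 (95% interval -0.93 to 0.43) in the anterior and 0.62 (0.14 to 1.10) in the posterior palate.

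**Figure D4:**
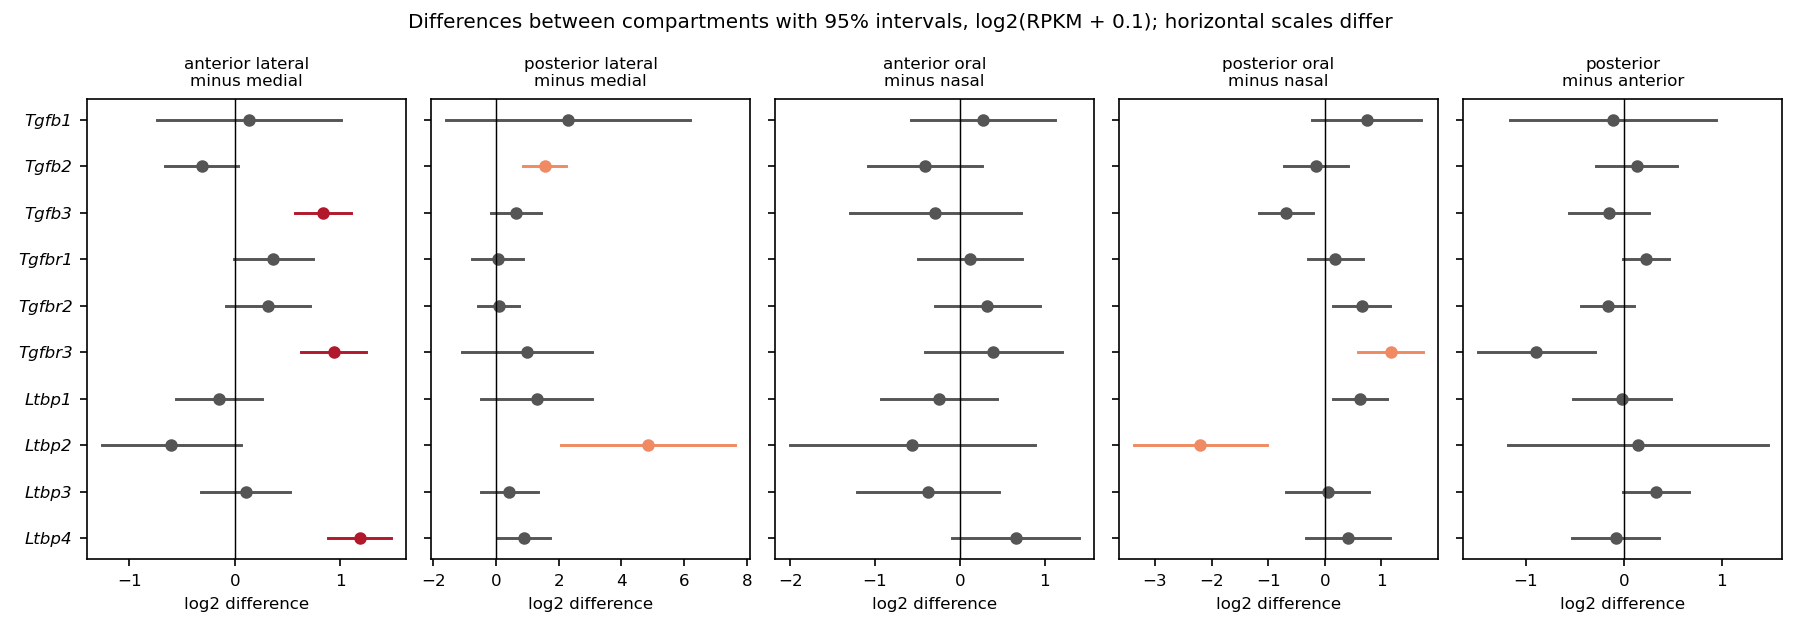
Log2 differences of the 10 genes on the log2(RPKM + 0.1) scale in 5 comparisons (horizontal axes, which differ in range), with 95% limma intervals. Dark red marks an adjusted p under 0.05 and light orange the study thresholds alone. Tgfb3, Tgfbr3 and Ltbp4 are dark red in the anterior lateral minus medial panel, and Ltbp2 points to lateral and to nasal palate in the posterior panels.

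Along the anterior-posterior axis no member passed the thresholds, which 1.75% of 8610 genes did. At an adjusted p under 0.05 limma called 3.32% of genes and 0 members. Tgfbr3 ranged from 14.2 to 35.6 RPKM (median 22.2) in the 13 anterior and from 1.88 to 23.1 RPKM (median 15.5) in the 12 posterior libraries. The groups overlapped, and the difference was -0.89 (SE 0.29, limma adjusted p = 0.102). It pointed the same way in each compartment, with posterior minus anterior differences of -1.10 in medial, -1.04 in lateral, -0.37 in oral and -1.13 in nasal palate. Within a shared sequencing run these were -1.78 (medial, run G, 2 posterior and 3 anterior libraries) and -1.19 (lateral, run H, 2 and 1). They were -1.003 (oral, run C, 1 and 1) and -0.62 (nasal, run C, 1 and 1). The medial value includes the sparse posterior medial replicate 2, at 1.88 RPKM. Posterior medial replicate 1, from run A, had 20.9 RPKM, above the anterior medial libraries at 15.1 to 19.3 RPKM. Of 4 smooth muscle and pericyte markers tested, 2 were lower in posterior palate, and their part in the level of Tgfbr3 was not tested. Without the 6 libraries named for Tgfbr2 or ERK2 the pooled difference was -1.07, and with the run as a covariate -1.15, and both passed the study thresholds.

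Ltbp2 and Tgfb2 had no such single direction. The posterior minus anterior difference of Ltbp2 was -3.05 in medial, 2.41 in lateral, -0.17 in oral and 1.47 in nasal palate, and that of Tgfb2 -0.87, 1.00, 0.37 and 0.12. Pooled over compartments, Ltbp2 differed by 0.14 with a 95% interval from -1.18 to 1.46, and Tgfb2 by 0.13 with an interval from -0.28 to 0.54.

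Across the 25 libraries Ltbp2 and Tgfb2 were the pair of members with the highest correlation on the log2 scale (r = 0.78). As a description over these libraries, which share runs and depths, the genes most like Ltbp2 were Krt19 (r = 0.82), Pbx3 (0.80), Tgfb2 (0.78), Fam20a (0.77) and Ppp1r3c (0.76) among 11913 genes. Those most like Tgfbr3 were Lbh (r = 0.96), Fam129a (0.92), C77370 (0.92), Zdhhc14 (0.91) and Bcl2 (0.91). Tgfb1 was most like Nagpa (r = 0.95), Tbkbp1 (0.95), X99384 (0.94), Dact3 (0.94) and Zfp319 (0.94). All these correlations include posterior medial replicate 2, in which Tgfb1 and Ltbp2 were listed at 0 and Tgfbr3 had its lowest value, 1.88 RPKM.

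The wider pathway was read from 94 listed genes that act on latent complexes, receptors or Smads or are known to respond to TGF-beta, of which 88 were in the table. In all, 17 had an adjusted p under 0.05 in at least 1 of the comparisons of pairs or of the axis or in the F-test. Taken singly, these tests called 0% to 4.42% of all genes. The share of all genes passing at least 1 of them was not computed, so the 17 cannot be set against a background. In the anterior palate, where Tgfb3, Tgfbr3 and Ltbp4 were higher laterally, 0 of the 20 target genes tested were higher and 5 were lower in the lateral compartment at an adjusted p under 0.05, which 2.51% of all genes passed in either direction. Their median log2 difference was -0.24, and that of all genes -0.03. Ctgf, a matricellular protein gene, had 10.5 ± 0.94 RPKM in lateral and 42.4 ± 5.87 RPKM in medial libraries (n = 3 each), a log2 difference of -2.002 (limma adjusted p = 0.00113). Snai1, a repressor of epithelial genes, differed by -1.46 (limma adjusted p = 0.0168), Tgfbi, a matrix protein gene named for its induction by TGF-beta, by -1.12 (adjusted p = 0.00650), Id1, an inhibitor of helix-loop-helix factors that BMP also induces, by -0.94 (adjusted p = 0.0277) and Tnc, tenascin C, by -0.82 (adjusted p = 0.0192). Pmepa1, which restrains Smad signalling, was also lower, by -0.94 (limma adjusted p = 0.0301), and was the 1 called among 13 Smads and regulators tested. The coreceptor Nrp1 was higher by 0.91 (limma adjusted p = 0.00650), with 54.4 ± 2.48 RPKM in lateral and 28.9 ± 0.43 RPKM in medial libraries (n = 3 each). Cartilage and smooth muscle markers moved with this comparison, as given above, and the run could not be told apart from the compartment.

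**Figure D5:**
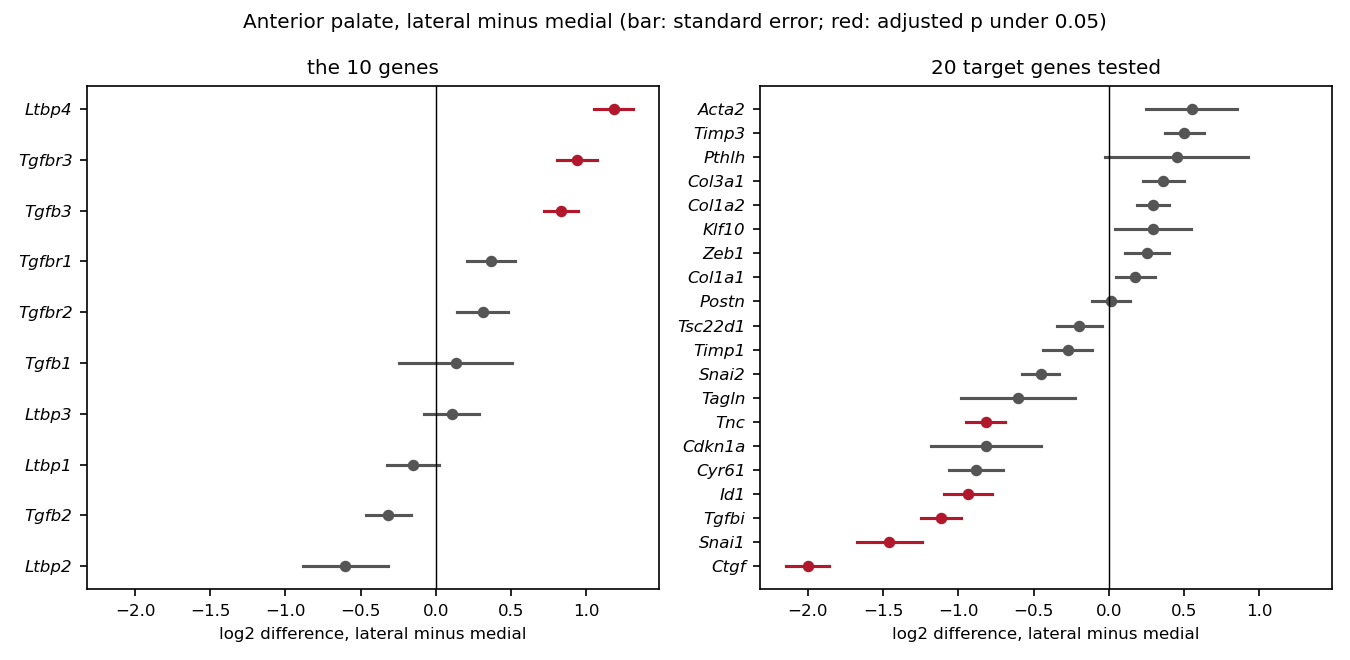
Log2 difference of lateral minus medial anterior palate (horizontal axis) for the 10 genes (left) and 20 known TGF-beta target genes tested (right), with bars of 1 standard error. Red marks an adjusted p under 0.05: 3 of the 10 genes to the right of 0 and 5 of the 20 target genes to the left.

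Of the same pathway genes, posterior lateral and medial palate gave 0 at an adjusted p under 0.05 in limma, and so did anterior oral and nasal palate. Oral against nasal posterior palate gave 1 of 9 coreceptors and receptor partners and 1 of 19 target genes tested, against 1.25% of all genes: Nrp1, higher by 1.47, and the cell cycle inhibitor gene Cdkn1a, at -2.27 (limma adjusted p = 0.0163 for both). Along the axis Nrp1 differed by -1.75 (limma adjusted p = 2.23e-06), and in each of these comparisons its difference had the sign of that of Tgfbr3. Along that axis 4 of 15 genes of latent complex activation and storage were called, against 3.32% of all genes: Tgm2 at 0.97 and Emilin1 at 0.66 higher and the integrin subunit gene Itgav at -0.50 and the fibronectin gene Fn1 at -0.34 lower in posterior palate, with the targets Tgfbi at 0.68 and Col1a1 at 0.46 higher (limma adjusted p between 0.0108 and 0.0348). In the F-test alone Acta2, Bambi, Itgb8 and Mmp9 were added. Mmp9, which can release latent TGF-beta, was highest in the posterior nasal palate (5.42 ± 1.73 RPKM, n = 3).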

How the data were processed

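Laser captured compartments of wild type CD1 palates at E14.5 were lysed, and RNA was amplified (NuGEN Ovation RNA-Seq System V2), tagmented (Nextera) and sequenced as single reads. The authors deposited RPKM values per gene, made in GeneSpring with duplicates and reads of several alignments taken out. The submitters' processing notes name TopHat and mm9, and the gene annotation is not given in the sources used here. Removal of duplicates caps abundant transcripts, amplification adds noise to scarce ones, and counts were not used here. The deposited RPKM values kept no exact whole reads for these genes, so depth is an estimate from value steps and GENCODE M21 lengths. Members were matched by symbol, since the table also carries Ltbp2 as an alias of Ltbp3.

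Groups and replicate numbers came from the labels. Differences on the log2 scale, after adding 0.1 RPKM, were tested in R 4.3.3 by limma 3.58.1. The scale understates changes of low genes. Each fit held the compared libraries alone. Genes needed at least 5 RPKM in 3 compared libraries, or 10 RPKM in 6 libraries for posterior against anterior, and members below this were added. P-values were adjusted over all genes tested by the Benjamini-Hochberg method. The F-test used all 25 libraries. The study's pooled Audic-Claverie test needs reads, and limma stood in for it. With 3 libraries a group no exact permutation test of a single gene was run. The test was checked on simulated data. Every member was named, with pathway genes whose adjusted p was under 0.05 anywhere, and for the 3 members of largest range the 5 most correlated genes. Members and lists were chosen with earlier results of these data known. Alternatives changed the pseudocount, scaling, variance model, filter, libraries in the fit, replicate block and run. Promoters came from RefSeq (GRCm38.p6). Figures used Python 3.11.15 and matplotlib 3.10.9.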

Additional observations from a re-analysis of the deposited data

Results flagged for a closer look

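Tgfb3 in the anterior nasal palate had 1 library far from the others: replicate 4 had 19.2 RPKM, while the other 3 lay between 35.7 and 36.5 RPKM. The gap to the nearest library was 0.951 of the whole range of the group, above the 95% critical value of Dixon for 4 values. This was the only compartment with 4 libraries. The 10 groups of values examined were those of the members there, and about 1 in 20 groups is expected to be picked out by chance. Replicate 4 came from run C and is 1 of the libraries whose alignment names carry Tgfbr2.

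The lateral minus medial difference of Tgfb2 in the anterior palate was below that in the posterior palate by a log2 difference of -1.87, and that of Ltbp2 by -5.46. Both had an unadjusted P under 0.05 in the limma test of the difference and an adjusted p of 0.168 and 0.550, so neither passed the correction over all genes in the fit of the compared libraries. In 4 alternative fits 1 of the pair passed it, Tgfb2 in the fit of all 25 libraries (adjusted p = 0.0380 in limma) and Ltbp2 there with the run as a covariate, without the libraries named for Tgfbr2 or ERK2, and without posterior medial replicate 1 (adjusted p from 0.0327 to 0.0448). For Tgfb2 all 3 posterior lateral libraries were above all posterior medial ones, and the anterior groups overlapped. The oral minus nasal difference of Ltbp1 differed between anterior and posterior palate by -0.87 (limma adjusted p = 1.00), with an unadjusted P under 0.05, and also failed the correction.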

How the results depend on the processing

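The counts of members past the study thresholds were 1 (anterior lateral against medial), 2 (posterior lateral against medial), 0 (anterior oral against nasal), 2 (posterior oral against nasal), 0 (posterior against anterior), 2 and 0 (medial-lateral and oral-nasal interaction) and 2 (F-test, adjusted p). The shares of all genes called were 2.37%, 1.12%, 1.44%, 3.5%, 1.75%, 2.42%, 2.38% and 4.42% in that order, and they moved with the setting too. With the run as a covariate over all 25 libraries the members called were 0, 4, 0, 1, 1, 3, 1 and 1. The shares of all genes were then 1.37%, 3.48%, 1.47%, 2.17%, 2.25%, 3.24%, 1.8% and 1.49%. In both medial-lateral comparisons that fit joins lateral to medial runs only through posterior nasal replicate 3, so it cannot separate run from compartment. In 1 fit of all libraries posterior lateral against medial gave 4 (5.06% of all genes) and the medial-lateral interaction 3 (3.21%). Without the libraries named for Tgfbr2 or ERK2, posterior lateral against medial gave 3 (0.906% of all genes) and posterior against anterior 1 (1.68%). The medial-lateral interaction then gave 3 (3.98%) and the oral-nasal interaction 1 (3.59%). The F-test gave 1 with a pseudocount of 0.01 (3.86% of all genes) and 4 after quantile normalization (6.15%). Leaving out 1 library gave 1 to 2 for anterior lateral against medial (2 without anterior medial replicate 3), 2 to 4 for posterior lateral against medial (4 without posterior medial replicate 1), 2 to 3 for posterior oral against nasal (3 without posterior oral replicate 3), 2 to 3 for the medial-lateral interaction (3 without posterior medial replicate 1), 0 to 1 for the oral-nasal interaction (1 without anterior oral replicate 1, anterior oral replicate 3 or posterior oral replicate 3) and 1 to 4 for the F-test (4 without posterior medial replicate 1, 3 without posterior medial replicate 2 or anterior oral replicate 1, 1 without posterior medial replicate 3, posterior nasal replicate 1 or posterior nasal replicate 2). With 1 library out, the shares of all genes in these 6 tests, in the order given, ran over these ranges: 1.78% to 2.44%, 0.657% to 2.93%, 2.65% to 3.61%, 1.75% to 6.58%, 1.93% to 3.77% and 3.25% to 6.22%. After quantile normalization Tgfbr3 had an adjusted p of 0.0206 in limma for posterior against anterior. The causes were not tested.

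With the label number as a replicate block the counts were 1, 2, 0, 2, 0, 2, 0 and 2, as without it, and in anterior lateral against medial 2 in place of 3 members, and 157 in place of 262 genes, had an adjusted p under 0.05. Deviations of libraries with the same number correlated at -0.101 to 0.305, not over 0.1 in every pair of any comparison, so the numbers were not taken as pairs. The 28 member differences followed under all settings had an unadjusted limma P under 0.05, groups apart, or a call that changed in some setting. They were thus picked by their values in these data, so a steady sign says little. Those from the F-test are ranges without a sign, and none of the rest changed sign. Among the other 52, mostly small, 58 of 1242 alternative values did. For lateral against medial anterior palate, members and genes with an adjusted p under 0.05 numbered 1 member and 157 genes without a filter on low values, 0 and 31 in the fit of all 25 libraries, 0 and 0 there with the run as a covariate, and 1 to 3 members and 55 to 195 genes without 1 library. Counts of all genes past the study thresholds rose without that filter, from 247 to 986, 116 to 519, 154 to 725, 370 to 1084 and 151 to 983 in the 5 comparisons. The 132 genes with an adjusted p under 0.05 in posterior oral against nasal fell to 0 without the libraries named for Tgfbr2 or ERK2. That setting took 1 library from each group, and leaving out any 1 library alone already gave 12 to 57 genes. The share past the study thresholds was 3.05% without the named libraries and 3.5% with them.

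With 3 libraries a group, few reads for Tgfb1 and Ltbp2, and spread from 1 sparse posterior medial library, differences under the intervals given could not be detected.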
